A study of Homo sapiens with 18 samples.

Results

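The genes described here are 10 of the 23686 in the deposited tables: the H3K9 methyltransferase genes SUV39H1, SUV39H2, SETDB1, SETDB2, EHMT1 and EHMT2, the HP1 genes CBX1, CBX3 and CBX5, and TRIM28. They were chosen by symbol, for the step of heterochromatin each acts in, with earlier results of these data known. All 10 were in the tables and passed the filter on low counts in both lines. RNA was measured by bulk sequencing of rRNA-depleted total RNA in 18 libraries from OCI-Ly1 and TMD8, both human diffuse large B-cell lymphoma lines. JIB-04, a small-molecule inhibitor of JmjC histone demethylases, was given to each line at 150 nM or at 500 nM, and the controls had 0.01% DMSO, the vehicle. Every group had 3 libraries. The culture medium was IMDM for OCI-Ly1 but RPMI 1640 for TMD8, and the effects of line and medium cannot be told apart. The libraries were technical triplicates, and no separate cultures are named for them, so every p-value measures only the spread between libraries. The labels used here give no treatment time.

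Methylation of lysine 9 on histone H3 marks heterochromatin. SUV39H1 and SUV39H2 add the mark mainly at pericentromeric repeats, SETDB1 at retroelements to which KRAB zinc finger proteins bring it through TRIM28, and EHMT2 (G9a) with its partner EHMT1 (GLP) in euchromatin. HP1 proteins, encoded by CBX5 (HP1α), CBX1 (HP1β) and CBX3 (HP1γ), bind the methylated lysine through a chromodomain and bring in further silencing factors. JmjC demethylases, the targets of JIB-04, include enzymes that remove this mark.

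The stretches just upstream of 4 members are printed because SUV39H1, CBX3 and SUV39H2 had the largest falls in TMD8 and SETDB2 was the member that rose there. Each is the 250 bases before the annotated start, from RefSeq on GRCh38.p14, on the plus strand, and capitals mark matches to the motifs searched. They lie at chrX:48696484-48696733 (SUV39H1, the downstream one of its annotated starts), chr10:14878616-14878865 (SUV39H2), chr7:26201193-26201442 (CBX3) and chr13:49444024-49444273 (SETDB2).
SUV39H1: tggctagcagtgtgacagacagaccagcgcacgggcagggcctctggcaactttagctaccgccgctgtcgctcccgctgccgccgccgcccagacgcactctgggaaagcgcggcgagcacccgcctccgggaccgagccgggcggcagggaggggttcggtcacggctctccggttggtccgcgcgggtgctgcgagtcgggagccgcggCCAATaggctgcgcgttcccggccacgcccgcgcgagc
SUV39H2: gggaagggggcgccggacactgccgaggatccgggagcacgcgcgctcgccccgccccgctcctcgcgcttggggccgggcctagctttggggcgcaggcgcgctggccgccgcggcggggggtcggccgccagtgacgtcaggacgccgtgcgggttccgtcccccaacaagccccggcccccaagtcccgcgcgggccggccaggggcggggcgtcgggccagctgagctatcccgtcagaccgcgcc
CBX3: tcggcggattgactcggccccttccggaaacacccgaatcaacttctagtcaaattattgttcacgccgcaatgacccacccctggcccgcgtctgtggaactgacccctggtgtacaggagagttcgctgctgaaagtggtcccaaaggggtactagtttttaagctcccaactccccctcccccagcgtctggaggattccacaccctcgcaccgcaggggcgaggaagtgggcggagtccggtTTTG
SETDB2: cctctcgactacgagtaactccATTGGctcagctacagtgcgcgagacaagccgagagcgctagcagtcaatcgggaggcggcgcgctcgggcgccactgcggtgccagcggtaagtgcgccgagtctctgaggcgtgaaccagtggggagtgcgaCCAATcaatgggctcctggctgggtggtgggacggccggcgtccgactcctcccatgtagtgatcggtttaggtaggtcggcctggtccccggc
Promoters were found for 9 of the 10 members, all but TRIM28, and motifs were searched on both strands from 250 bases before to 50 after the start. The E2F site (TTTCCCGC, TTTGGCGC, TTTCGCGC or TTTGCCGC) was in 3.31% of 35116 promoter windows, and CBX3 held TTTGGCGC from -4 to 4 around its start, of which the 4 bases before the start are shown. The CCAAT box (CCAAT) was in 34.6% of windows, and among the sequences above it lay at -38 to -34 in SUV39H1 and at -94 to -90 and, on the opposite strand, -228 to -224 in SETDB2. CBX5, not printed, also held it. The CHR element (TTTGAA or TTCGAA) was in 16.4% of windows, and SUV39H2 held TTTGAA from 3 to 8, past the stretch shown. The ATF4 element (TTGCATCA, in 0.866% of windows) and the C/EBP-ATF element (TGATGNAAN, in 3.61%) were in no member's window. A match describes letters only.

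Library totals were 17579732 to 32651115 estimated counts in OCI-Ly1 and 9550092 to 20509500 in TMD8. B-cell markers (CD79A, CD79B, MS4A1, PAX5 and CD22) were all present and summed to 517 to 947 TPM over the 18 libraries. T-cell markers summed to 26.7 to 28.9 TPM in OCI-Ly1 with DMSO and 11.9 to 13.8 at 500 nM, and to at most 1.82 in TMD8. Myeloid markers reached at most 1.53 TPM and epithelial markers 17.6. In TMD8 the 10 most abundant genes of a library took 54.3% to 62.1% of all TPM with DMSO and 71.2% to 74.3% at 500 nM, against 17.5% to 24.7% in the OCI-Ly1 groups given DMSO and 500 nM. TPM of any other gene therefore carries this shift, and changes are given on TMM-normalised counts per 1000000 (CPM), tested with edgeR's quasi-likelihood test with Benjamini-Hochberg adjustment. In bulk RNA, fewer cells of a type and less RNA per cell cannot be told apart.

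With DMSO, levels per transcript length put CBX3, TRIM28 and CBX1 at the top in both lines and a methyltransferase at the bottom. In OCI-Ly1, CBX3 was highest at 391 ± 20.6 TPM (SD, n = 3), followed by TRIM28 at 204 ± 12.7 and CBX1 at 73.0 ± 2.38. EHMT1 (55.5 ± 1.86), CBX5 (48.7 ± 2.09) and SETDB1 (32.3 ± 1.36) came next. EHMT2 (27.7 ± 2.03) and SUV39H2 (26.1 ± 2.08) overlapped between libraries, and SETDB2 (18.6 ± 1.26) and SUV39H1 (15.5 ± 0.795) were lowest. In TMD8, TRIM28 led with 594 ± 72.5 TPM, ahead of CBX3 at 70.1 ± 9.36 and CBX1 at 24.4 ± 1.90. EHMT2 (21.8 ± 0.926) and CBX5 (19.5 ± 1.39) overlapped. So did each neighbour in the run EHMT1 (16.3 ± 1.87), SUV39H2 (14.4 ± 1.80), SUV39H1 (11.7 ± 1.25) and SETDB1 (11.3 ± 0.773), while SETDB2 was lowest at 5.02 ± 0.670.

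**Figure D1:**
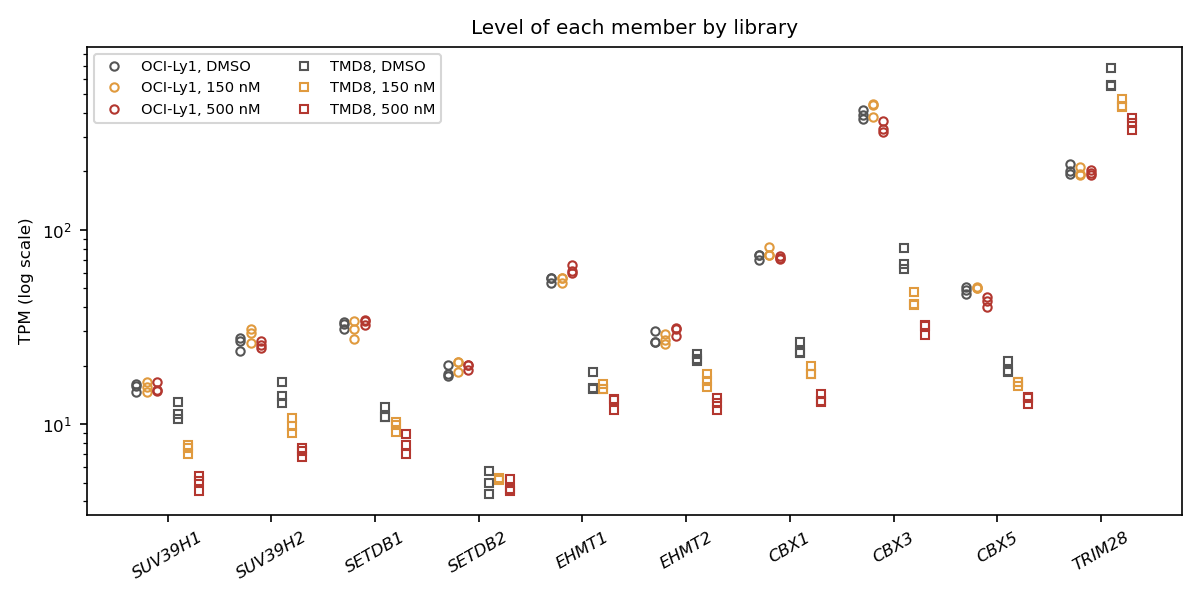
TPM on a log scale for each member, 1 point per library, with circles for OCI-Ly1, squares for TMD8 and colours for DMSO, 150 nM and 500 nM. TRIM28 is the highest member in every TMD8 library and CBX3 in every OCI-Ly1 library, and TMD8 points step down with dose on this scale for most members. The median change of all genes tested in TMD8 on log2(TPM + 1) was also below 0, at -0.10 at 150 nM and -0.22 at 500 nM.

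TRIM28, the co-repressor that KRAB zinc finger proteins bind, differed most between the lines. Its level was 496, 464 and 425 CPM in the OCI-Ly1 DMSO libraries and 2502, 2353 and 2362 in those of TMD8, values that did not overlap. CPM were scaled within each line, so differences between lines are taken from the fit of all 18 libraries. There OCI-Ly1 minus TMD8 was -2.50 (SE 0.06, adjusted p = 3.9e-23) on the log2 scale. CBX3 was the other way round, at 592, 624 and 635 CPM against 208, 196 and 191, with a log2 difference of 1.52 in that fit (SE 0.06, adjusted p = 3.8e-18). In all, 6 members were higher in OCI-Ly1 (CBX3, SETDB2, EHMT1, CBX1, SETDB1 and CBX5), where 37.8% of all 16604 genes tested were higher. TRIM28, EHMT2 and SUV39H1 were lower, against 39.0% of all genes, and SUV39H2 was not called, at -0.13 (SE 0.06, adjusted p = 0.0685). On log2(TPM + 1) without centring, where the median of all genes moved to 0.61, SUV39H1 (0.38) and EHMT2 (0.33) turned to higher in OCI-Ly1, and SUV39H2 was called higher (0.82). TRIM28 made up 75.3 ± 0.375% of the summed TPM of the 10 genes in TMD8 (SD, n = 3) and 22.9 ± 1.69% in OCI-Ly1, ratios that no scaling of a library alters.

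At 150 nM 8 members changed in TMD8, and none was called in OCI-Ly1. In OCI-Ly1 edgeR called 0 of 10 higher and 0 lower, against 0.748% and 0.141% of all 15638 genes tested, and 0 of 10 had an unadjusted p under 0.05. DESeq2 and limma on TPM also called 0. Log2 changes there ran from -0.07 for TRIM28 to 0.11 for SUV39H2, and the 95% interval for SUV39H2 was -0.03 to 0.26. In TMD8, 7 members fell, where 25.0% of all 15363 genes tested fell, and 1 rose, where 19.2% rose. The members' median log2 change was -0.23 beside 0.01 over all genes tested.

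At 500 nM most members were lower in TMD8 and 4 of the 10 in OCI-Ly1. TMD8 had 8 members lower against 30.7% of all genes, and 1 higher against 29.9%, with a median log2 change of -0.39 beside 0.04 over all genes. In OCI-Ly1 CBX1, CBX3, CBX5 and TRIM28 fell, 4 of 10 against 25.9% of all genes, and 0 rose against 27.7%, with a median of -0.15 beside -0.0033. DESeq2 also called 0 members higher there, against 4151 of all 15638 genes, while limma on log2(TPM + 1) called EHMT1 higher. On that TPM scale 5739 of the 15638 genes were called higher, and the median over all genes was 0.10. The comparisons of each dose with DMSO share their DMSO libraries.

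**Figure D2:**
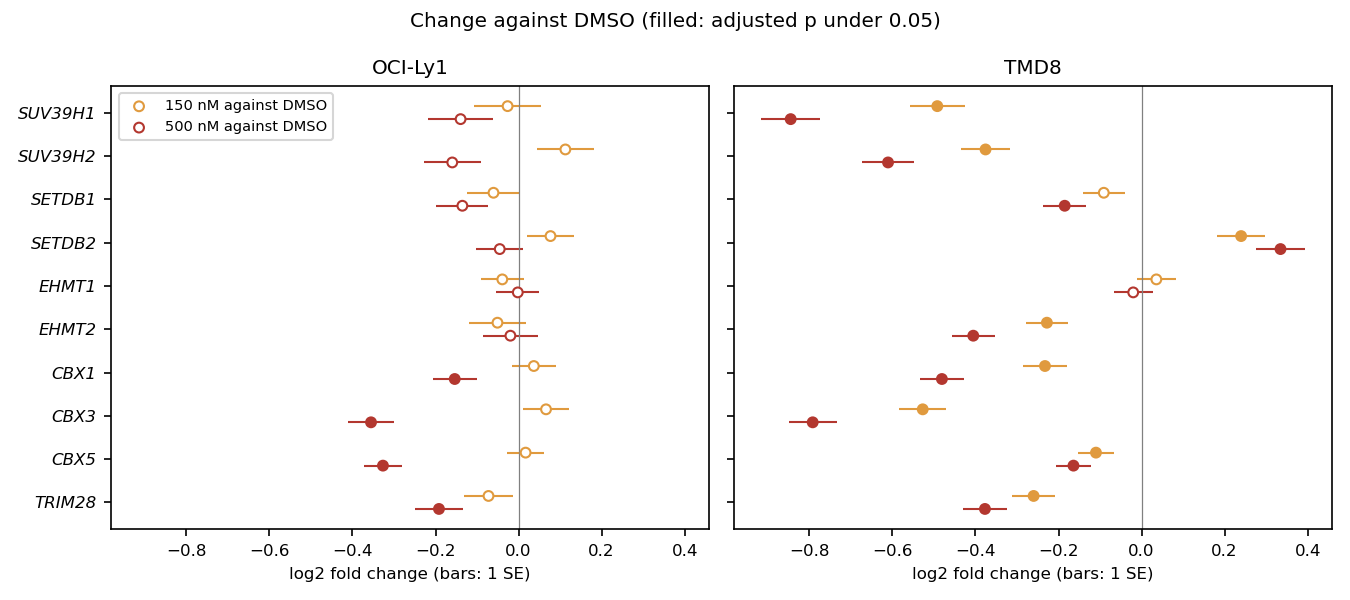
Log2 fold change against DMSO of each member, from edgeR, with bars of 1 SE, OCI-Ly1 on the left and TMD8 on the right. Filled points passed an adjusted p of 0.05: 4 at 500 nM in OCI-Ly1, and 8 at 150 nM and 9 at 500 nM in TMD8, SETDB2 being the filled point to the right of 0, a direction that turns on uncentred TPM at 500 nM.

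SUV39H1, a writer of pericentromeric H3K9 methylation, had the largest fall of the 10 in TMD8 at 500 nM. Its libraries held 44.2, 41.0 and 44.9 CPM in the DMSO group, 31.6, 32.7 and 28.5 in the 150 nM group and 23.5, 24.5 and 24.7 in the 500 nM group. The 3 groups did not overlap and stepped down with dose. The log2 changes were -0.49 (SE 0.07, adjusted p = 1.3e-05) at 150 nM and -0.85 (SE 0.07, adjusted p = 1.1e-08) at 500 nM, and the difference between 500 and 150 nM was -0.35 (SE 0.07, adjusted p = 0.00146). In OCI-Ly1 its libraries held 33.7, 33.1 and 29.5 CPM with DMSO and 29.4, 27.5 and 30.4 at 500 nM, which overlapped, with a change of -0.14 (SE 0.08, adjusted p = 0.145) that was called on centred TPM alone (-0.23, adjusted p = 0.0228). SUV39H2, its paralog, fell alongside it in TMD8, from 62.9, 60.9 and 57.9 CPM to 45.2, 44.7 and 49.6 at 150 nM and 39.9, 41.1 and 37.5 at 500 nM. No 2 of these groups overlapped, and the changes were -0.38 (SE 0.06, adjusted p = 6.6e-05) and -0.61 (SE 0.06, adjusted p = 1.4e-07). The step from 150 to 500 nM, -0.23 (SE 0.06, adjusted p = 0.00994), was lost without the third 500 nM library (-0.20, adjusted p = 0.0529). In OCI-Ly1 SUV39H2 held 55.2, 63.0 and 62.7 CPM in the DMSO group, 60.0, 66.9 and 68.6 in the 150 nM group and 54.1, 55.2 and 52.5 in the 500 nM group. The 500 nM libraries lay below those at 150 nM, at -0.27 (SE 0.07, adjusted p = 0.0033), and overlapped with DMSO, at -0.16 (SE 0.07, adjusted p = 0.058). That last change was called in 5 alternatives: with no low-count filter (-0.17, adjusted p = 0.0379), on centred TPM (-0.25, adjusted p = 0.0127), with the replicate block (-0.16, adjusted p = 0.0354), in a fit of the 6 libraries compared (-0.15, adjusted p = 0.0493) and without the first DMSO library (-0.23, adjusted p = 0.0132). SUV39H2 overlaps DCLRE1C, a DNA repair gene, and the counting is not stated to use strand, so their reads may not be fully separated. DCLRE1C changed by -0.47 (SE 0.06, adjusted p = 5.4e-06) at 500 nM in OCI-Ly1 and -0.11 (SE 0.06, adjusted p = 0.103) in TMD8.

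SETDB2, a SET-domain relative of SETDB1, was the member that rose. In TMD8 it went from 44.4, 43.5 and 40.5 CPM in the DMSO group to 49.3, 52.1 and 50.1 at 150 nM and 54.8, 51.6 and 55.5 at 500 nM. Both doses lay above DMSO and overlapped each other. Its log2 changes were 0.24 (SE 0.06, adjusted p = 0.00261) and 0.33 (SE 0.06, adjusted p = 8.1e-05), but on uncentred log2(TPM + 1), where the median of all genes was -0.22 at 500 nM, the change at 500 nM turned to -0.05 and was not called. On that scale the change at 150 nM was 0.055 (adjusted p = 0.702), also not called. SETDB2 held 85.3, 87.0 and 92.8 CPM in OCI-Ly1 with DMSO and 84.9, 86.3 and 85.8 at 500 nM, which overlapped (-0.05 (SE 0.06, adjusted p = 0.516)). SETDB1, the methyltransferase that TRIM28 brings to retroelements, fell at 500 nM in TMD8 from 66.9, 62.6 and 65.4 CPM to 55.5, 57.5 and 58.7. Those groups did not overlap, and the change was -0.19 (SE 0.05, adjusted p = 0.0054), lost when libraries were scaled by size alone (-0.09, adjusted p = 0.0953). In OCI-Ly1 it went from 94.6, 98.6 and 91.7 to 88.0, 85.3 and 85.9 CPM. The libraries did not overlap, but -0.14 (SE 0.06, adjusted p = 0.0765) did not pass, except in a fit of the 6 libraries compared (-0.13, adjusted p = 0.0474).

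EHMT1 and EHMT2, which work as a heterodimer, differed in their calls in TMD8. EHMT2 fell from 114, 119.6 and 126 CPM in the DMSO group to 108, 99.5 and 99.5 at 150 nM and 89.7, 90.4 and 91.4 at 500 nM. The groups did not overlap, with changes of -0.23 (SE 0.05, adjusted p = 0.00126) and -0.41 (SE 0.05, adjusted p = 2.1e-06). Its step between doses, -0.18 (SE 0.05, adjusted p = 0.0156), was lost without the first 150 nM library (-0.14, adjusted p = 0.0789), the first 500 nM library (-0.17, adjusted p = 0.0632) or the second (-0.18, adjusted p = 0.055). EHMT1 held 117, 111 and 112 CPM with DMSO and 113, 115 and 107 at 500 nM, which overlapped. Its change was -0.02 (SE 0.05, adjusted p = 0.731), with an interval of -0.12 to 0.08, although uncentred log2(TPM + 1) gave a called fall of -0.32. On that scale 7581 of all 15363 genes were called lower, and their median over all genes was -0.22. In OCI-Ly1 neither was called at 500 nM: EHMT1 changed by -0.00 (SE 0.05, adjusted p = 0.979), an interval of -0.11 to 0.11, and EHMT2 by -0.02 (SE 0.07, adjusted p = 0.822), an interval of -0.16 to 0.12.

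CBX3, which encodes HP1γ, fell in both lines. In TMD8 it held 208, 196 and 191 CPM in the DMSO group, 149, 137 and 127 in the 150 nM group and 114, 118 and 111 in the 500 nM group, groups that did not overlap. The changes were -0.53 (SE 0.06, adjusted p = 1.1e-06) and -0.79 (SE 0.06, adjusted p = 2.1e-09). In OCI-Ly1 it held 592, 624 and 635 CPM in the DMSO group, 595, 685 and 658 in the 150 nM group and 473, 462 and 512 in the 500 nM group. The 500 nM libraries lay below all others, at -0.36 (SE 0.06, adjusted p = 3.5e-05), while 150 nM overlapped DMSO. CBX3 starts 697 bases from HNRNPA2B1 in the opposite direction in RefSeq. HNRNPA2B1, an RNA-binding protein gene, fell at 500 nM, with changes of -0.95 (SE 0.05, adjusted p = 7.7e-11) in OCI-Ly1 and -0.71 (SE 0.06, adjusted p = 8.2e-09) in TMD8. Of other members' neighbours placed this way, C9orf37 and C2 were measured, and neither was called lower at that dose. The neighbours of SETDB1 and SUV39H2 were not among the genes measured. C9orf37, 110 bases from EHMT1, was not called in OCI-Ly1 (-0.05, adjusted p = 0.579) or TMD8 (0.05, adjusted p = 0.67). C2, 85 bases from EHMT2, rose in OCI-Ly1 by 1.39 (SE 0.30, adjusted p = 7.8e-04), from 0.83 to 2.21 CPM. In TMD8 C2 went from 1.65 to 1.14 CPM and was not called (-0.50 (SE 0.27, adjusted p = 0.12)).

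CBX1, which encodes HP1β, stepped down in TMD8 from 72.9, 72.6 and 75.3 CPM to 65.5, 63.5 and 59.4 and then 54.3, 51.1 and 52.8. None of the groups overlapped, and its changes were -0.23 (SE 0.05, adjusted p = 0.00144) and -0.48 (SE 0.05, adjusted p = 4.6e-07). In OCI-Ly1 it went from 119, 128 and 121 CPM with DMSO to 113, 107 and 110.3 at 500 nM, without overlap, at -0.15 (SE 0.05, adjusted p = 0.022). That call was lost without the second DMSO library (-0.13, adjusted p = 0.0888), the second 500 nM library (-0.14, adjusted p = 0.0729) or the third (-0.16, adjusted p = 0.0529), with scaling by library size alone (-0.07, adjusted p = 0.28) and on log2(TPM + 1) (-0.016, adjusted p = 0.811). CBX5, which encodes HP1α, fell in OCI-Ly1 from 430.1, 459.7 and 452 CPM to 348, 352 and 369 at 500 nM, without overlap, a change of -0.33 (SE 0.05, adjusted p = 9.7e-06). In TMD8 it held 317, 325 and 327 CPM with DMSO and 292, 291 and 281 at 500 nM, also apart, a change of -0.16 (SE 0.04, adjusted p = 0.0031) that was lost with scaling by library size alone (-0.07, adjusted p = 0.127). The call for CBX5 at 150 nM in TMD8, -0.11 (SE 0.04, adjusted p = 0.0455), was lost on leaving out the second DMSO library (-0.11, adjusted p = 0.108), the third (-0.10, adjusted p = 0.116) or any of the 150 nM libraries (-0.12 to -0.07, adjusted p = 0.0704 to 0.214). It was also lost with scaling by library size alone (-0.025, adjusted p = 0.624), with no low-count filter (-0.094, adjusted p = 0.161), with the replicate block (-0.11, adjusted p = 0.0562) and in a fit of the 6 libraries compared (-0.078, adjusted p = 0.261).

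TRIM28 fell in both lines at 500 nM. In TMD8 it held 2502, 2353 and 2362 CPM in the DMSO group, 2089.5, 2025 and 1913 in the 150 nM group and 1849, 1847 and 1861 in the 500 nM group. The groups did not overlap, with changes of -0.26 (SE 0.05, adjusted p = 0.00057) and -0.38 (SE 0.05, adjusted p = 5.8e-06) against DMSO. Its difference between 500 and 150 nM, -0.12 (SE 0.05, adjusted p = 0.104), was not called. That difference was called by DESeq2 (-0.13, adjusted p = 0.0179), with no low-count filter (-0.16, adjusted p = 0.0213), on log2(TPM + 1) uncentred (-0.34, adjusted p = 0.0388) and centred (-0.18, adjusted p = 0.0352), in a fit of the 6 libraries compared (-0.12, adjusted p = 0.0367) and without the third 150 nM library (-0.17, adjusted p = 0.0179). In OCI-Ly1 it went from 496, 464 and 425 CPM to 407, 408 and 397 at 500 nM, without overlap, a change of -0.19 (SE 0.06, adjusted p = 0.0107). That call was lost without the first DMSO library (-0.14, adjusted p = 0.0576), with scaling by library size alone (-0.10, adjusted p = 0.151) and on log2(TPM + 1) (-0.05, adjusted p = 0.504).

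**Figure D3:**
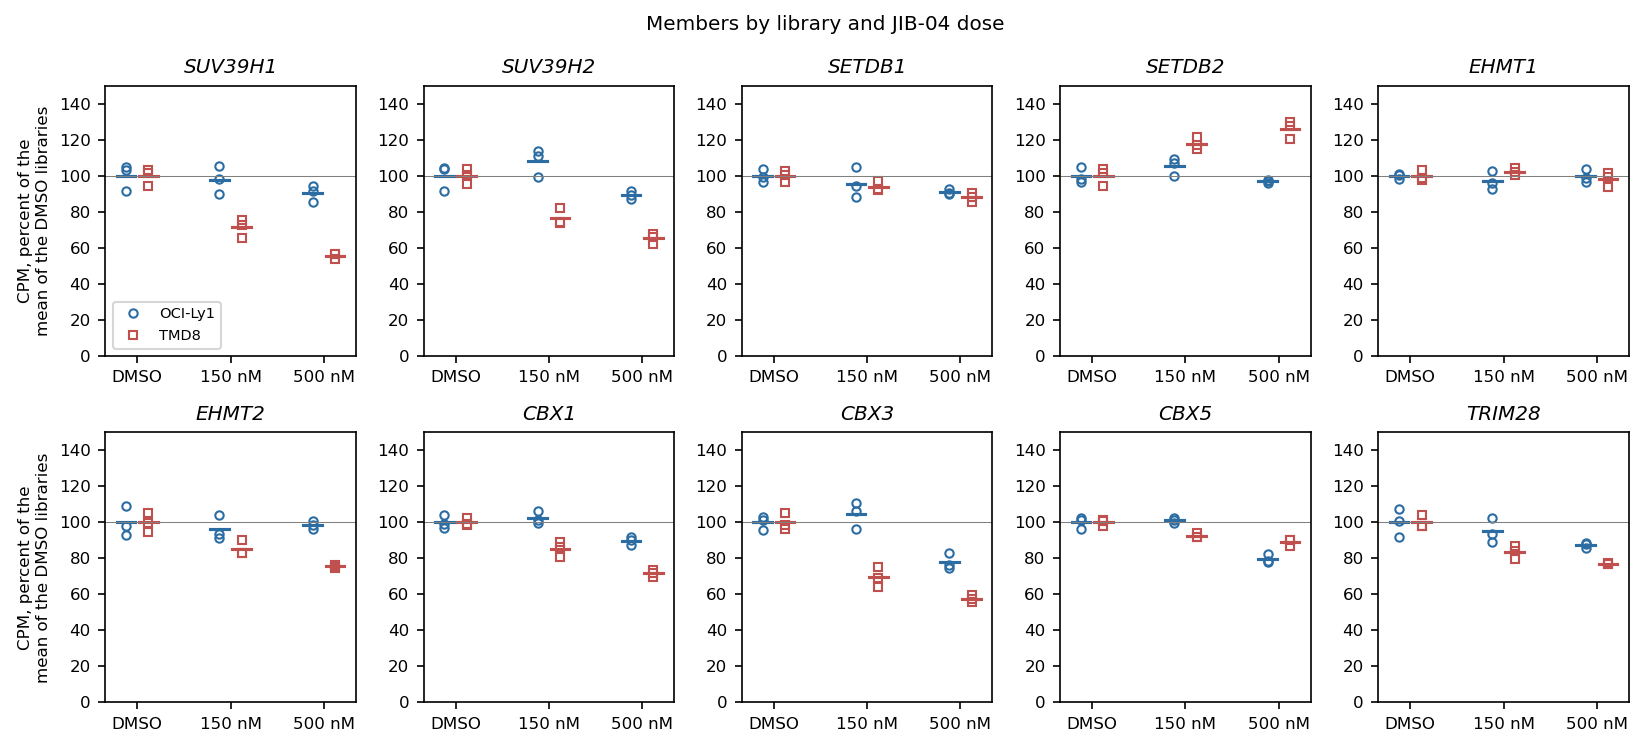
CPM of each member as a percent of the mean of its line's DMSO libraries, 1 point per library (circles OCI-Ly1, squares TMD8) with the mean of 3 as a bar. In TMD8 the 500 nM points of SUV39H1 and CBX3 lie farthest below 100 and those of SETDB2 above it; SETDB2 is not above DMSO on uncentred TPM at 500 nM.

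Between the doses, 5 members were lower at 500 than at 150 nM in TMD8 (SUV39H1, SUV39H2, EHMT2, CBX1 and CBX3), where 15.0% of all genes were lower and 13.7% higher. In OCI-Ly1, SUV39H2, CBX1, CBX3 and CBX5 were lower, 4 of 10 against 21.1% of all genes, with 25.1% of all genes higher. The CBX1 step there was lost with scaling by library size alone (-0.11, adjusted p = 0.0819) and on log2(TPM + 1) (-0.085, adjusted p = 0.202), and that of SUV39H2 on log2(TPM + 1) (-0.16, adjusted p = 0.131). At 150 nM CBX3 in TMD8 had reached 66.5% of its 500 nM change on the log2 scale and SUV39H1 58.2%. In OCI-Ly1 CBX3 stood at 0.07 (SE 0.06) at 150 nM and at -0.42 (SE 0.06) from there to 500 nM.

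Whether the lines responded differently was tested by subtracting the TMD8 change from the OCI-Ly1 change, with the 18 libraries fitted together. At 150 nM the difference was positive for SUV39H1, SUV39H2, CBX1 and CBX3, which fell in TMD8 and were not called in OCI-Ly1. That was 4 of 10 against 15.0% of 16604 genes, and 0 differed the other way against 8.33%. At 500 nM the same test called 6 members (SUV39H1, SUV39H2, EHMT2, CBX1, CBX3 and TRIM28) against 28.2% of all genes, and SETDB2 alone in the other direction against 18.1%. The largest was SUV39H1, at 0.74 (SE 0.11, adjusted p = 6e-06). CBX5 was not called, at -0.13 (SE 0.07, adjusted p = 0.103), and on uncentred log2(TPM + 1), with a median of 0.38 over all genes, it turned to 0.33 and was called.

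Ratios between members within a library do not depend on how the library is scaled. CBX3 took 61.4 ± 1.41% of the summed HP1 TPM in TMD8 with DMSO, 55.4 ± 1.35% at 150 nM and 53.6 ± 0.994% at 500 nM (SD, n = 3). Both doses lay below DMSO in every library. In OCI-Ly1 its share was 76.3 ± 0.486% with DMSO and 74.5 ± 0.770% at 500 nM, also apart. EHMT1 to EHMT2 in TMD8 went from 0.747 ± 0.0563 to 1.01 ± 0.0291, and in OCI-Ly1 the ratio was 2.01 ± 0.124 with DMSO and 2.08 ± 0.0983 at 500 nM, which overlapped. SETDB1 to SETDB2 in TMD8 went from 2.27 ± 0.184 to 1.65 ± 0.0808, without overlap. Over the 20 comparisons of ratios with DMSO, each a two-sided exact permutation test, the smallest p was 0.1, the smallest that 3 against 3 allows, and 0.182 after Benjamini-Hochberg adjustment.

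**Figure D4:**
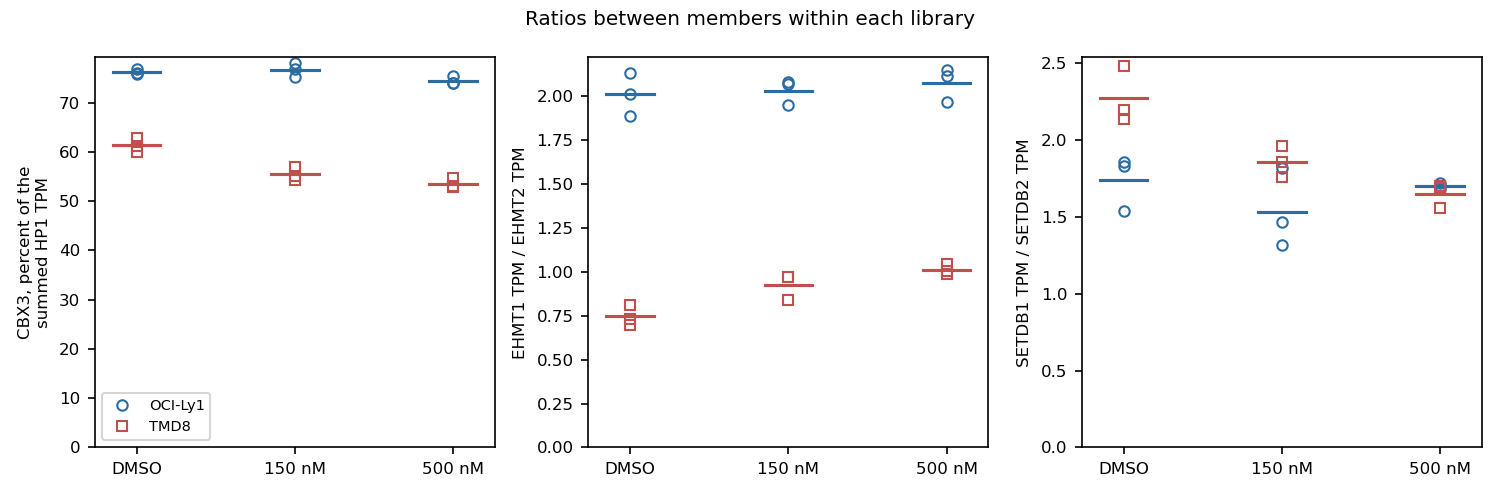
Ratios within each library by dose, 1 point per library with the mean of 3 as a bar, circles for OCI-Ly1 and squares for TMD8: the percent of HP1 TPM from CBX3, EHMT1 over EHMT2, and SETDB1 over SETDB2. In TMD8 the share of CBX3 and SETDB1 over SETDB2 step down from DMSO, and EHMT1 over EHMT2 steps up.

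Estimated counts divided by TPM follow the mean effective length of the transcripts counted for a gene, a second readout that does not depend on the amount of RNA. Limma called 0 of 10 members at either dose in either line, against 0.0% and 0.672% of genes in OCI-Ly1 at 150 and 500 nM and 0.158% and 1.31% in TMD8. An unadjusted p under 0.05 was seen for 2 and 2 members in OCI-Ly1 and 0 and 2 in TMD8. SETDB1 ranged from 1.30 to 1.47 times the median gene in OCI-Ly1 and 1.39 to 1.54 in TMD8, and CBX5 from 4.23 in TMD8 to 4.32 in OCI-Ly1.

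Of 28 further heterochromatin genes listed with these 10, 26 were tested in OCI-Ly1 and 27 in TMD8. At 500 nM 5 rose and 8 fell in OCI-Ly1, where 27.7% and 25.9% of all genes did, and 9 rose and 10 fell in TMD8, where 29.9% and 30.7% did, so these counts lie near the shares over all genes. At 150 nM 5 rose and 8 fell in TMD8, against 19.2% and 25.0% of all genes, and edgeR called 0 in OCI-Ly1, where 2 had an unadjusted p under 0.05. Their median log2 changes at 500 nM were -0.043 in OCI-Ly1 and -0.024 in TMD8. The smaller groups of the list are read against the same shares. Cofactors of SETDB1 and TRIM28 and the HUSH complex had 4 of 7 lower and 1 higher at 500 nM in each line. Of 10 HP1-bound factors, 4 fell and 1 rose in OCI-Ly1, and 2 fell and 4 rose in TMD8. In OCI-Ly1 the largest rises were SUV420H2, an H4K20 methyltransferase gene, by 0.75 (SE 0.13, adjusted p = 9.2e-05), LRIF1, which binds HP1, by 0.57 (SE 0.07, adjusted p = 1.3e-06), and PRDM2, a SET-domain methyltransferase gene, by 0.55 (SE 0.06, adjusted p = 8.5e-07). The largest falls were FAM208A (TASOR), the scaffold of the HUSH silencing complex, at -0.37 (SE 0.06, adjusted p = 3.9e-05), SP100, a nuclear body protein gene, at -0.33 (SE 0.06, adjusted p = 1.5e-04), and CHAMP1, a zinc finger protein gene, at -0.28 (SE 0.07, adjusted p = 0.0029). In TMD8 MECOM, a PR-domain gene, rose by 1.10 (SE 0.26, adjusted p = 0.00116), PRDM2 by 0.92 (SE 0.07, adjusted p = 2.7e-09) and SUV420H2 by 0.59 (SE 0.07, adjusted p = 2.2e-06). MECOM was low there, at 5.31 ± 2.64 CPM (0.704 TPM) with DMSO and 11.7 ± 0.964 CPM (1.22 TPM) at 500 nM (SD, n = 3). SUMO2, which encodes a SUMO modifier, had a change of -0.62 (SE 0.06, adjusted p = 4.9e-08), CHAMP1 -0.48 (SE 0.06, adjusted p = 1.6e-06) and ADNP, a zinc finger protein gene, -0.43 (SE 0.06, adjusted p = 3.2e-06). SP100 in TMD8 stood at 0.24 (SE 0.06, adjusted p = 0.0017), the opposite sign to OCI-Ly1.

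Most of the listed proliferation genes fell in TMD8, as most members did, and OCI-Ly1 was mixed. Of 14 listed, 12 fell and 0 rose in TMD8 at 150 nM, against 25.0% and 19.2% of all genes, and 12 fell and 1 rose at 500 nM, against 30.7% and 29.9%. In OCI-Ly1 7 fell and 2 rose at 500 nM, against 25.9% and 27.7% of all genes, while edgeR called 0 in OCI-Ly1 at 150 nM, where 2 had an unadjusted p under 0.05. Their median log2 change at 500 nM was -0.10 in OCI-Ly1 and -0.58 in TMD8. Some went up: in OCI-Ly1 E2F1 stood at 137 ± 6.71 CPM with DMSO and 168 ± 11.1 at 500 nM (SD, n = 3). MCM3 stood at 572 ± 21.0 and 624 ± 3.97 there, and in TMD8 PCNA stood at 284 ± 17.5 and 339 ± 13.8. CCNB1, a mitotic cyclin gene, had the largest fall in both lines, at -1.27 (SE 0.05, adjusted p = 3.3e-13) in OCI-Ly1 and -2.45 (SE 0.09, adjusted p = 5.5e-13) in TMD8. TOP2A, a topoisomerase gene, stood at -0.58 (SE 0.05) and -1.38 (SE 0.06), and CCNA2, a cyclin gene, at -0.50 (SE 0.07) and -1.30 (SE 0.07). Their summed TPM ran from 881 to 1119 in TMD8 with DMSO and from 485 to 553 at 500 nM, and from 2874 to 3038 and 2836 to 3002 in OCI-Ly1. These sums carry the shift of the TPM scale. The median gene ran from 5.89 to 7.01 TPM in TMD8 with DMSO and from 4.71 to 5.32 at 500 nM. In OCI-Ly1 it ran from 11.4 to 11.9 and from 13.1 to 14.1. The part of the proliferation genes in the members' falls was not tested.

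The gene most like each member over the 9 libraries of each line, by the mean of the 2 lines' correlations of log2 CPM among 9949 genes, is a description of libraries that share doses and depth. For CBX3 it was TMEM48 (r = 0.99 in OCI-Ly1 and 0.99 in TMD8), for SUV39H2 it was DBF4 (0.96 and 0.96), and for SUV39H1 it was PPP2R1A (0.92 and 0.99). CBX1 was nearest to CNBP (0.98 and 0.97), CBX5 to SHCBP1 (0.97 and 0.97) and TRIM28 to SLC25A22 (0.99 and 0.97). EHMT1 had the lowest top value, with MANBAL (0.78 and 0.75).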

How the data were processed

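RNA from 18 libraries was quantified with kallisto 0.46.0 on hg19, per the submitters' processing notes, which also name R 4.3.1 and DESeq2 1.40.2. The authors deposited estimated counts and TPM per gene for each line, and how transcripts were summed to genes is not given in the sources used here. Estimated counts were rounded and tested with edgeR 4.0.16 in R 4.3.3 (TMM, quasi-likelihood, its low-count filter), with the 9 libraries of a line in 1 fit and all 18 for differences between lines. P-values were adjusted by Benjamini-Hochberg over all genes tested and called under 0.05. DESeq2 1.42.0, library size alone, no filter, and limma 3.58.1 on log2 TPM with pseudocounts of 1 and 0.1 were alternatives, as were leaving out libraries. Counts divided by TPM were tested with limma for genes with at least 10 counts. Genes most alike needed a mean of 5 CPM in each line.

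The members and gene lists were chosen with earlier results of these data known. All members are named. Of the further heterochromatin genes, those named are the called genes that rose most and those that fell most at 500 nM, 3 each way in each line, and of the proliferation genes up to 3 with the largest fall. SP100 in TMD8, and E2F1, MCM3 and PCNA of the proliferation genes, were added after their values were seen. Of the listed genes, 2 are not reported here and are left out of the counts and sums. Chi-square per degree of freedom between libraries of a group was 1.65 to 11.5, so no pair agreed within sampling noise. The tests were tried on simulated data.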

Additional observations from a re-analysis of the deposited data

Results flagged for a closer look

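The changes of 11 members and doses against DMSO differed between the lines by the test of the difference itself, edgeR's quasi-likelihood test on the OCI-Ly1 change minus the TMD8 change in log2 units. At 150 nM the differences were 0.47 (SE 0.11, adjusted p = 0.00229) for SUV39H1, 0.50 (SE 0.09, adjusted p = 0.00028) for SUV39H2, 0.28 (SE 0.07, adjusted p = 0.00776) for CBX1 and 0.60 (SE 0.09, adjusted p = 2.9e-05) for CBX3. At 500 nM the methyltransferase genes differed by 0.74 (SE 0.11, adjusted p = 6e-06) for SUV39H1, 0.48 (SE 0.09, adjusted p = 0.00014) for SUV39H2 and 0.41 (SE 0.09, adjusted p = 0.00044) for EHMT2, and by -0.35 (SE 0.08, adjusted p = 0.0008) for SETDB2. CBX1 differed by 0.36 (SE 0.08, adjusted p = 0.00037) and CBX3 by 0.47 (SE 0.09, adjusted p = 0.00013). TRIM28 differed by 0.22 (SE 0.09, adjusted p = 0.0409), a call lost on leaving out any of 7 of the 12 libraries in turn (adjusted p = 0.0659 to 0.135) and with scaling by library size alone (0.18, adjusted p = 0.0569). The value for SETDB2 turned to 0.14 on uncentred log2(TPM + 1) and was not called. Line and medium cannot be told apart in these differences.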

How the results depend on the processing

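Of 1340 recomputed fold changes of members (90 results), 1195 kept their direction and side of the threshold, 40 lost the call, 50 gained one and 55 turned, 41 of these with no call under either setting. The cause was not tested. No direction turned with DESeq2, with no low-count filter or with the replicate block. On log2(TPM + 1) and log2(TPM + 0.1), in that order, the changes that turned were as follows. For OCI-Ly1 at 150 nM, SUV39H1 0.0013 and 0.0014. For OCI-Ly1 at 500 nM, SETDB1 0.057 and 0.058, SETDB2 0.083 and 0.086, EHMT1 0.17 and 0.17, EHMT2 0.12 and 0.13. For OCI-Ly1 from 150 to 500 nM, SETDB1 0.14 and 0.14. For TMD8 at 150 nM, EHMT1 -0.070 and -0.073. For TMD8 at 500 nM, SETDB2 -0.053 and -0.062. For TMD8 from 150 to 500 nM, SETDB2 -0.11 and -0.13. For the line difference at 150 nM, SETDB2 0.049 and 0.043, EHMT1 0.069 and 0.073. For the line difference at 500 nM, SETDB2 0.14 and 0.15, CBX5 0.33 and 0.35. For OCI-Ly1 against TMD8 with DMSO, SUV39H1 0.38 and 0.41, SUV39H2 0.82 and 0.86, EHMT2 0.33 and 0.34. With scaling by library size alone they were SETDB2 0.042 (OCI-Ly1 at 500 nM), EHMT1 0.085 (OCI-Ly1 at 500 nM), EHMT2 0.067 (OCI-Ly1 at 500 nM), SETDB1 0.0044 (OCI-Ly1 from 150 to 500 nM), EHMT1 0.073 (TMD8 at 500 nM), SETDB1 -0.047 (the line difference at 150 nM), SUV39H2 0.021 (OCI-Ly1 against TMD8 with DMSO). With centred TPM they were EHMT1 -0.021 (OCI-Ly1 from 150 to 500 nM), EHMT2 -0.054 (OCI-Ly1 from 150 to 500 nM), SUV39H2 0.094 (OCI-Ly1 against TMD8 with DMSO). In a fit of only the 6 libraries compared, 1 turned, EHMT1 0.0042 (OCI-Ly1 at 500 nM). Leaving out 1 library turned some uncalled changes, with ranges of SUV39H1 -0.082 to 0.028 (OCI-Ly1 at 150 nM), EHMT2 -0.11 to 0.020 (OCI-Ly1 at 150 nM), CBX5 -0.0088 to 0.039 (OCI-Ly1 at 150 nM), EHMT1 -0.036 to 0.022 (OCI-Ly1 at 500 nM), EHMT2 -0.075 to 0.043 (OCI-Ly1 at 500 nM), EHMT1 -0.0023 to 0.070 (OCI-Ly1 from 150 to 500 nM), EHMT2 -0.015 to 0.084 (OCI-Ly1 from 150 to 500 nM), EHMT1 -0.046 to 0.0070 (TMD8 at 500 nM), SETDB1 -0.035 to 0.098 (the line difference at 150 nM).

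Member counts also moved with the scale. In OCI-Ly1 at 500 nM, 2 were lower by library size alone, and 2 lower and 1 higher on log2(TPM + 1) and again on log2(TPM + 0.1), while 6 were lower on centred TPM and 6 in a fit of the 6 libraries compared, and 5 with no filter. The counts over all genes moved as well. Over all 15638 genes, 3080 were lower by library size alone, 2240 lower and 5739 higher on log2(TPM + 1), and 6079 lower on centred TPM. The fit of 6 libraries had 3980 of 15490 lower, and no filter 4242 of 20459. With TMM 4057 were lower and 4330 higher. From 150 to 500 nM in OCI-Ly1, 2 were lower and 1 higher on both TPM scales, and 7 lower on centred TPM. Over all genes, 1860 were lower and 4961 higher on log2(TPM + 1), and 5403 lower on centred TPM. With TMM these were 3302 lower and 3930 higher. In TMD8 at 150 nM, 2 were higher by library size alone, and 0 were higher on both TPM scales at 150 and at 500 nM, while from 150 to 500 nM 8 were lower on log2(TPM + 0.1). Over all 15363 genes, 4098 were higher at 150 nM by library size alone. On log2(TPM + 1), 1129 were higher at 150 nM and 1751 at 500 nM. From 150 to 500 nM 4146 were lower on log2(TPM + 0.1), against 2298 with TMM. The line difference at 150 nM had 1 lower by library size alone and 7 higher on both TPM scales. Over all 16604 genes, 1937 were lower by library size alone and 3432 higher on log2(TPM + 1), against 1383 and 2484 with TMM. At 500 nM the line difference had 2 lower by library size alone, 0 on both TPM scales and 2 on centred TPM. The counts over all genes were 3254 by library size alone, 1112 on log2(TPM + 1) and 5670 on centred TPM, against 3009 with TMM. With DMSO 1 was lower in OCI-Ly1 on both TPM scales, where 2906 of all genes were lower on log2(TPM + 1), against 6470 with TMM. Leaving out 1 library gave 3 to 4 lower in OCI-Ly1 and 8 lower in TMD8 at 500 nM, and 6 to 7 lower in TMD8 at 150 nM. Over all genes those fits had 3546 to 3762, 4331 to 4597 and 2751 to 3846 lower. Of all genes called at 500 nM, log2(TPM + 1) put 71.9% higher in OCI-Ly1 and 18.8% in TMD8, against 51.6% and 49.3% with TMM.

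With group means subtracted, same-numbered libraries of different groups correlated at -0.046 to 0.15 in OCI-Ly1 and -0.055 to 0.14 in TMD8. The value was over 0.1 in 2 of 9 pairs in each line, all of them DMSO with 150 nM. Differently numbered libraries correlated at -0.17 to 0.042 in OCI-Ly1 and -0.19 to 0.10 in TMD8. Deviations from a mean of 3 libraries are tied to one another, so whether the numbers pair the libraries is not settled. With the replicate block, 5 members were lower in OCI-Ly1 at 500 nM, 6 in TMD8 at 150 nM and 8 in TMD8 at 500 nM. Over all genes, the block had 4152 of 15638, 3841 of 15363 and 4731 of 15363 lower. The order of levels kept 58 of 60 ranks when counts per relative length replaced TPM, and a minimum of 50 counts also left 0 members called for transcript length.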
